A study of Mus musculus with 8 samples.

Results

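The miRNAs described here are those of the mouse miR-297, miR-466, miR-467 and miR-669 families on a single-colour miRNA array. They were chosen by name alone, as every non-control entry whose name begins with mmu-miR-297, mmu-miR-466, mmu-miR-467 or mmu-miR-669, with all letters, arms and star forms. The rule found 39 miRNAs among 611 mouse miRNAs and 650 miRNAs in all, namely 3 of miR-297, 14 of miR-466, 10 of miR-467 and 12 of miR-669. They were read by 106 probes on 780 spots per array, with 20 spots for each miRNA. Total RNA came from smooth muscle cells of small vessels, grown from male mice (strain C57BL6) that lack Rap1a (Rap1a -/-), a GTP-binding signalling protein related to Ras. The 4 vector cultures carried an empty shuttle vector and the 4 RapCA cultures carried the RapCA shuttle vector, of which the labels say no more. All 8 cultures therefore share the loss of Rap1a, growth in 10% serum and exposure to virus overnight without serum. They recovered for 48 h in 0.5% serum before RNA was taken. The series title calls the comparison knockout against rescue, so the question here was whether the 4 families change on rescue.

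Most genes of the families lie inside Sfmbt2, a Polycomb-group gene of which one intron holds a large array of related miRNA hairpins found in rodents. Sfmbt2 is imprinted, with the paternal copy active in the early embryo and the placenta, and the miRNA cluster is known for its role in placental growth. Many mature sequences of these families are built around runs of alternating A and C or of alternating U and G.

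The label of the group as the Sfmbt2 cluster held for most of its members and not for all. In the RefSeq gene table (GRCm38.p6), 72 of 82 genes of the families lie within the bounds of Sfmbt2 and 10 lie elsewhere. Of the 39 miRNAs on the array, 28 had all their gene copies inside Sfmbt2 and 3 (miR-297a*, miR-466f-3p and miR-466f-5p) had some copies inside and some outside. The 6 with no copy inside were miR-466i, miR-466j, miR-466k, miR-467f, miR-467g and miR-669n. For the other 2, miR-466a-3p and miR-466a-5p, no gene was matched by name.

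Mature sequences could be matched for 6 of the 39, the same 6 whose genes lie outside Sfmbt2. They are shown because miR-467f is 1 of the 2 members that could be tested and because they show the repeat runs. They come from RefSeq (GRCm38.p6), are written 5′ to 3′, and have the seed (bases 2 to 8) in capitals.
miR-467f: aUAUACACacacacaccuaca
miR-466i: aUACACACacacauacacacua
miR-467g: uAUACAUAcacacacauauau
miR-669n: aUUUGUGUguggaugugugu
miR-466j: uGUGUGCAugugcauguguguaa
miR-466k: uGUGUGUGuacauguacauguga
The array name miR-466i gives no arm, and the sequence is that of the single entry of that gene in the table, miR-466i-3p. No seed was shared between any of the 6. miR-467f, a miRNA of 21 bases at chr11:69635419-69635439 on the minus strand, had the longest run of alternating A and C among these 6, 12 bases. The run was 11 bases in miR-466i (chr13:17747552-17747573, plus strand) and 9 bases in miR-467g (chr5:34732872-34732892, minus strand). The other 3 carried alternating U and G instead, over 9 bases in miR-466k (chr3:85467396-85467418, plus strand), 8 in miR-669n (chr3:115979905-115979924, plus strand) and 7 in miR-466j (chr10:60960802-60960824, plus strand). The letters ACACAC occurred in 0.655% and UGUGUG in 1.67% of the 1679 mature mouse miRNAs of that table, read on the miRNA strand. Each occurred in 3 of the 6 members. These 6 are themselves among the 1679, and no other member could be matched, so the shares are not independent and were not tested.

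Signal on the arrays was low for nearly all members in both groups. Detection was decided per probe and array: a share over 0.5 of the probe's spots, outlier spots aside, had to be well above background, and 1 such probe was enough for a miRNA. By this rule 7 of the 39 members were detected on at least 1 array and 32 on none, and no member (0 of 39) was detected on all 8. Among the other 572 mouse miRNAs, 206 (36.0%) were detected on at least 1 array, against 17.9% of the members. No miR-297 miRNA was detected (0 of 3). In the miR-466 family 3 of 14 were detected, in the miR-467 family 2 of 10 and in the miR-669 family 2 of 12.

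The vector arrays 1 to 4 had 1, 3, 3 and 1 detected members. The RapCA arrays 1 to 4 had 5, 1, 5 and 2. The groups overlapped, with 2.00 ± 1.15 in vector and 3.25 ± 2.06 in RapCA cells (mean ± SD, n = 4 each). The other mouse miRNAs went the opposite way, with 165 to 194 detected on the vector arrays and 120 to 175 on the RapCA arrays. Whether that difference in direction exceeds the spread was not tested.

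The arrays themselves differed in brightness between the groups, and this touches every value that follows. Over the 189 probes seen on all 8 arrays, the 75th percentile of signal lay between 320.5 and 478 on the vector arrays. It was 383 on RapCA replicate 1 and 144 to 159 on the other 3 RapCA arrays. The scaling used below sets this percentile equal, so it multiplied signal by 0.582 to 0.868 on the vector arrays, by 0.726 on RapCA replicate 1 and by 1.75 to 1.93 on the other RapCA arrays. RapCA replicate 1 is thus a RapCA culture with the brightness of a vector culture, and the changes of the tested members are also given without it. All 8 arrays lay on 1 slide, with the vector arrays in 1 row of positions and the RapCA arrays in the other, per the file headers, so position and group cannot be told apart. The labels call the cultures biological replicates and do not say whether they came from separate animals, so the p-values below cover culture-to-culture spread, which may be technical. In bulk RNA, fewer cells of a type and less RNA per cell cannot be told apart.

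Marker miRNAs of the labelled cell type were detected and were lower in RapCA cells. miR-143 and miR-145, miRNAs of smooth muscle, were both detected on at least 1 array, and limma called both lowered after scaling. The log2 change was -1.62 ± 0.15 for miR-143 (SE, limma adjusted p = 6.66e-06) and -0.75 ± 0.10 for miR-145 (SE, limma adjusted p = 6.62e-05), whose RapCA mean of 3.27 lay at the floor of 3.26. The 3 of 3 mesenchymal markers, miR-199a-3p, miR-199a-5p and miR-214, were also called lowered, by -0.90, -1.45 and -1.24 on the log2 scale. Of all 168 miRNAs tested, 50% were called lowered, and the counts of markers are too small to be read against that share. These markers thus went down in the group where the tested members are called raised, and their part in those calls was not tested. Of 7 markers of skeletal and heart muscle only miR-206 was detected. Of 2 endothelial, 5 blood cell, 6 epithelial and 2 neural markers, 0 were detected, and their summed signal by the Feature Extraction call was 0 on every array. The miR-290 to miR-295 cluster, known from the early embryo and trophoblast, had 14 miRNAs on the array, and 0 were detected by probe and 0 tested. Its summed signal by the Feature Extraction call was not 0 throughout, with 0 to 7.36 on the vector arrays and 0 to 17.5 on the RapCA arrays.

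Before scaling, the members' mean signals hardly rose above the level of empty probes. The median of the negative control spots lay between 2.24 and 3.03 intensity units over the 8 arrays, and 27 to 33 of the 39 members had a mean below that median on a given array. For 16 members the mean was below 0, that is, below the local background, on all 8 arrays. Among these were 8 of the 14 miR-466 miRNAs (miR-466a-5p, miR-466b-5p, miR-466d-3p, miR-466d-5p, miR-466f-5p, miR-466j, miR-466k and miR-466l) and 6 of the 12 miR-669 miRNAs. miR-466l, known to act on the interleukin-10 message in mouse macrophages, ranged from -2.77 to -0.765 over the 8 arrays. Over the 32 members detected nowhere, the mean signal of a member on an array ranged from -5.82 to 7.41, the highest being that of miR-466i. The highest value on any array among undetected members was 0.976 in the miR-297 family (miR-297c), 7.12 in the miR-467 family (miR-467b) and 7.39 in the miR-669 family (miR-669n).

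**Figure D1:**
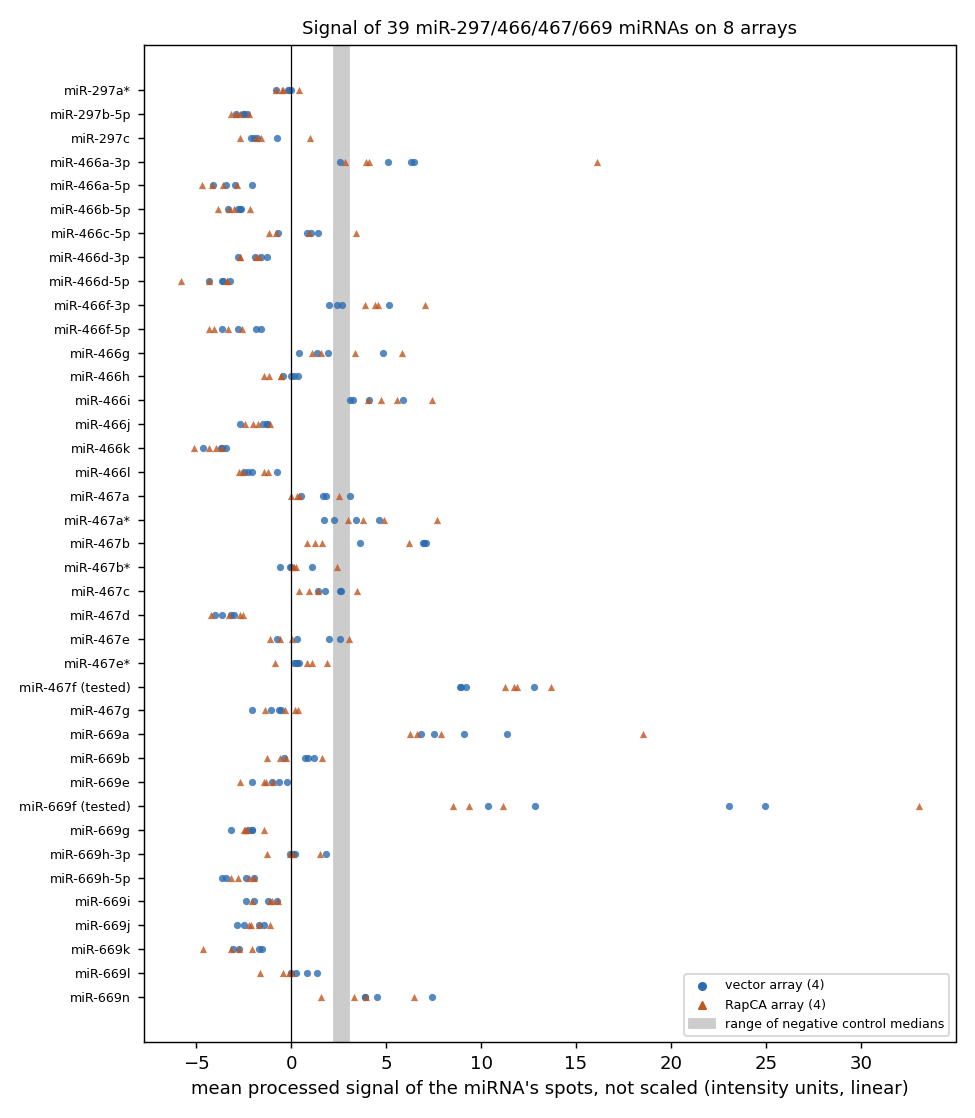
Each row is one of the 39 miRNAs and each point the mean processed signal of its spots on one array, before scaling, in intensity units on a linear axis, with circles for the 4 vector arrays and triangles for the 4 RapCA arrays; the grey band spans the medians of the negative control spots, 2.24 to 3.03. Most rows lie at or below the band, and the 2 tested members, miR-467f and miR-669f, lie above it on every array.

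Where both arms of a hairpin were on the array, at most 1 was detected. miR-466a-3p was detected on 1 array and miR-466a-5p on 0. miR-466f-3p was likewise detected on 1 array and miR-466f-5p on 0. In the miR-467 family, miR-467a* was detected on 1 array and miR-467a on 0. Neither arm was detected for miR-466d, miR-467b, miR-467e or miR-669h.

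Of the 7 detected members, 5 were seen on too few arrays of either group to be tested, since a test was run only for probes seen on 4 of 4 arrays in one group or the other. miR-466a-3p, miR-467a* and miR-669a were all detected on RapCA replicate 1. For miR-466a-3p that was the only array, at 16.1 intensity units, while RapCA replicates 2 to 4 had 2.84 to 4.10 and the vector arrays 2.58 to 6.49. miR-467a* was also seen on that array alone, where its signal was 7.69, while the other RapCA arrays had 2.99 to 4.90 and the vector arrays 1.73 to 4.61. miR-466f-3p and miR-466g, both with gene copies inside Sfmbt2, were detected on RapCA replicate 3 and on no other array. Their unscaled signals there were 7.06 and 5.83, against vector ranges of 2.00 to 5.14 and 0.403 to 4.85. Detection of these 4 thus rested on 1 RapCA array each.

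miR-669a, which has 12 gene copies in the table, all inside Sfmbt2, is reported to hold back the muscle regulator MyoD in mouse cells. It was detected on vector replicates 2 and 3 and on RapCA replicates 1 and 3. Its unscaled mean signal on the vector arrays 1 to 4 was 7.52, 11.35, 9.10 and 6.83 intensity units. On the RapCA arrays 1 to 4 it was 18.6, 6.61, 7.91 and 6.25. RapCA replicate 1 was the highest of all 8 and RapCA replicate 4 the lowest, and the groups overlapped. After scaling they did not overlap on either of its 2 probes. The brighter probe had 6.53 to 9.58 on the vector arrays, below the floor of 9.61 set on each spot before taking logs, and 15.3 to 18.8 on the RapCA arrays. The dimmer one had 3.25 to 5.01 and 8.07 to 9.46. With Feature Extraction's total gene signal in place of the probe signal, miR-669a could be tested and was called raised, with a log2 change of 1.30 ± 0.24 (SE, limma adjusted p = 0.00177).

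Of the 39 members, 2 could be tested, miR-467f and miR-669f, and limma called both raised in RapCA cells after scaling. Across all 168 miRNAs tested, 26.2% were called raised and 50% lowered, with a median log2 change of -0.30 (76.2% called in either direction). The groups did not overlap for either of the 2, as for 67.9% of all tested miRNAs. A count of 2 among 39 is too small to be read against that background. miR-467f entered the test through the RapCA arrays, where its probe was detected on 4 of 4, and miR-669f through the vector arrays, also 4 of 4.

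miR-467f has its gene outside Sfmbt2, on chromosome 11, and its AC run is printed above. Of its 2 probes, 1 was detected, on vector replicates 2 and 3 and on all 4 RapCA arrays. The unscaled signal of that probe on the vector arrays 1 to 4 was 11.2, 16.7, 12.3 and 12.1 intensity units. On the RapCA arrays 1 to 4 it was 15.3, 14.5, 17.2 and 14.1. Unscaled, the groups overlapped, because vector replicate 2 exceeded 3 of the 4 RapCA arrays, and the means were 13.1 ± 2.45 and 15.3 ± 1.37 (SD, n = 4 each).

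After scaling, the log2 signal of miR-467f was 3.28, 3.42, 3.27 and 3.46 on the vector arrays 1 to 4. It was 3.48, 4.79, 4.90 and 4.66 on the RapCA arrays 1 to 4. The 4 vector arrays and RapCA replicate 1 lay near the floor, which is 3.26 on this scale and was set before averaging, while the 3 dim RapCA arrays were high. Mean log2 signal was 3.36 ± 0.10 in vector and 4.46 ± 0.66 in RapCA cells (SD over 4 arrays), which makes a log2 change of 1.10 ± 0.27 (SE), with a 95% interval of 0.49 to 1.71 (limma adjusted p = 0.00454). miR-467f was kept for the test through the RapCA arrays alone, the group in which it is called high, and its vector mean lay near the floor, so neither the call nor the size of the change is independent of that choice. The floor narrows the spread of the vector values, since the mean scaled signal of vector replicates 1 and 3, 7.80 and 7.15, was below the floor of 9.61. Without RapCA replicate 1 the log2 change was 1.34 ± 0.09 (limma adjusted p = 9.83e-07). Without scaling it was 0.13 ± 0.16 (limma adjusted p = 0.458). With RapCA replicate 1 as the only RapCA array it was 0.32 ± 0.13 (limma adjusted p = 0.108), a fit that assumes that this array varies like the vector arrays. With array brightness as a covariate it was 0.15 ± 0.17 (limma adjusted p = 0.455). The covariate fit separates group from brightness mainly through RapCA replicate 1, the only RapCA array as bright as the vector arrays. Over the 168 tested miRNAs the median change was itself -1.03 on the log2 scale without scaling. miR-467f lay above the median with and without scaling, and so did miR-669f, at -0.39 without scaling. Apart from the floor, scaling shifts all miRNAs of an array alike, so the place above the median on each scale is not a separate observation.

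In the authors' deposited table of 54 selected miRNAs, miR-467f was the 1 member present. The values of the authors' deposited table for miR-467f were 10, 18, 8 and 11 on the vector arrays 1 to 4 and 14, 26, 37 and 33 on the RapCA arrays 1 to 4. The groups overlap in the authors' deposited table too, because vector replicate 2 lies above RapCA replicate 1. No source used here states its normalization.

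miR-669f has 1 gene copy in the table, inside Sfmbt2. Of its 2 probes, 1 was detected, on all 4 vector arrays and on RapCA replicates 1, 3 and 4. The unscaled signal of that probe on the vector arrays 1 to 4 was 20.4, 39.8, 36.8 and 17.8 intensity units. On the RapCA arrays 1 to 4 it was 55.0, 13.4, 16.1 and 14.7. RapCA replicate 1 was the highest of the 8 arrays and the other 3 RapCA arrays were the 3 lowest. The unscaled mean was 28.7 ± 11.2 in vector and 24.8 ± 20.1 in RapCA cells (SD, n = 4 each).

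Scaling moved the 3 dim RapCA arrays from below the vector arrays to above them. The log2 signal of miR-669f became 3.83, 4.67, 4.42 and 3.94 on the vector arrays 1 to 4 and 5.32, 4.68, 4.80 and 4.71 on the RapCA arrays 1 to 4. The nearest values of the groups, 4.67 for vector replicate 2 and 4.68 for RapCA replicate 2, nearly touch. Mean log2 signal was 4.21 ± 0.40 in vector and 4.87 ± 0.30 in RapCA cells (SD over 4 arrays), which makes a log2 change of 0.66 ± 0.21 (SE), with a 95% interval of 0.19 to 1.13 (limma adjusted p = 0.0164). Without scaling the change had the opposite sign, -0.39 ± 0.47 (limma adjusted p = 0.458), and with spike-in scaling it was -0.39 ± 0.500 (limma adjusted p = 0.486). Without RapCA replicate 1 the change was 0.51 ± 0.19 (limma adjusted p = 0.0321). Without vector replicate 1 it was 0.55 and no longer passed (limma adjusted p = 0.0532). Of the 2 tested members miR-669f is the 1 inside Sfmbt2, and its call depends on the scaling and on vector replicate 1. With array brightness as a covariate its change was 1.22 ± 0.23 (limma adjusted p = 0.000862). That fit, too, separates group from brightness mainly through RapCA replicate 1, where miR-669f was highest, so it is not a separate line of evidence.

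**Figure D2:**
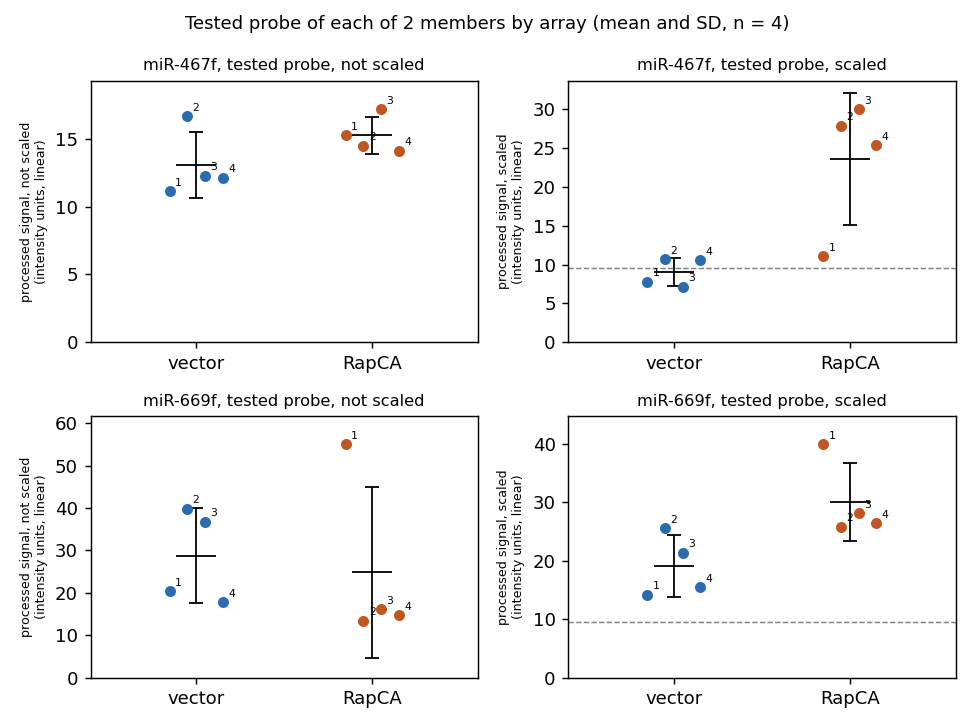
Processed signal (intensity units, linear axes from 0) of the tested probe of miR-467f (top) and miR-669f (bottom) on each array before (left) and after scaling (right), with replicate numbers, the mean and the SD of 4 arrays per group; the dashed line is the floor of 9.61. miR-467f differs little between groups before scaling, and the 3 dim RapCA arrays separate after it, while miR-669f is lowest on RapCA replicates 2, 3 and 4 before scaling and not after it.

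The unscaled signals of the members moved with array brightness to different degrees. Mean signals of miR-669f over both probes were 8.52 to 11.1 on the 3 dim RapCA arrays and 33.0 on RapCA replicate 1. For miR-467f the same 3 arrays had 11.3 to 13.7 and RapCA replicate 1 had 11.9, so 2 of the 3 dim arrays were slightly lower than RapCA replicate 1 and 1 was higher. Over all 39 members the unscaled mean was higher in RapCA cells for 16 and lower for 23. The groups did not overlap before scaling for 1 of 39, miR-466h, which is known to promote apoptosis in hamster cells, and for 22.4% of all mouse miRNAs. miR-466h was detected on no array and its means ranged from -1.42 to 0.351, all below the medians of the negative controls.

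**Figure D3:**
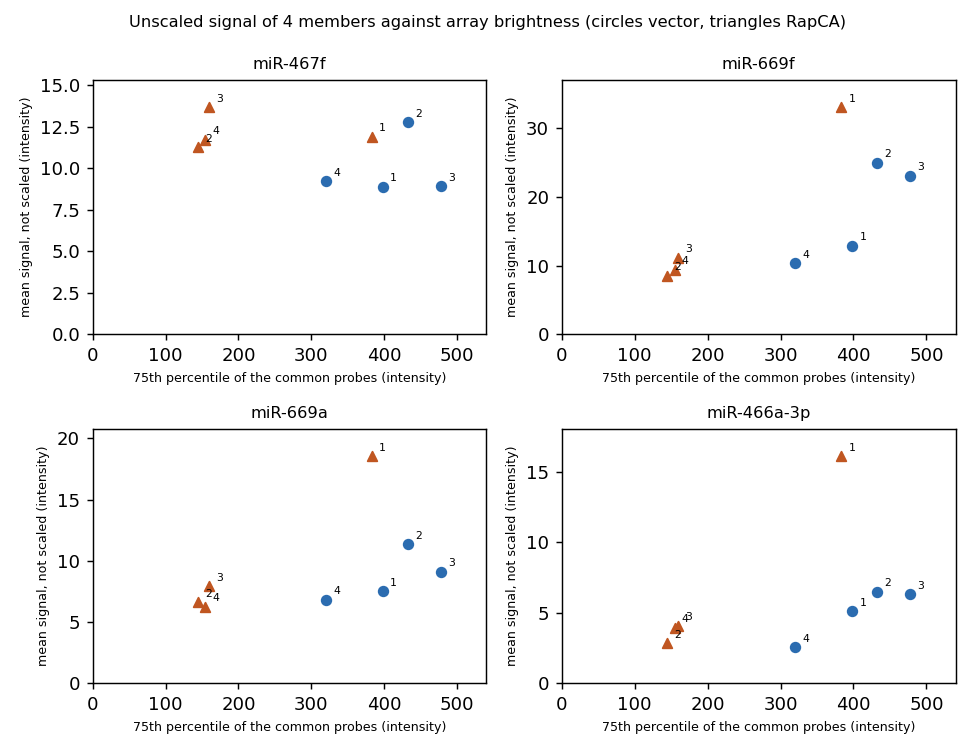
Mean signal before scaling (vertical axes, intensity units) of miR-467f, miR-669f, miR-669a and miR-466a-3p against array brightness, the 75th percentile over the 189 probes seen on all arrays (horizontal axes, intensity units), with 1 point per array and replicate numbers, circles for vector and triangles for RapCA. miR-669f is at 8.52 to 11.1 on the 3 dim RapCA arrays and at 33.0 on RapCA replicate 1, while miR-467f stays between 8.87 and 13.7 on all 8.

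Summed by family after scaling, with values below 0 set to 0, signal was higher on the RapCA arrays for the 3 families that had any detected member. The sum for miR-466 was 7.14 to 15.1 on the vector arrays and 21.6 to 44.3 on the RapCA arrays. For miR-467 it was 14.8 to 20.8 and 27.0 to 42.4, and for miR-669 it was 18.0 to 30.7 and 32.2 to 47.2. The groups did not overlap in any of the 3 sums. All 3 sums include signals of undetected members, and on the vector arrays the miR-466 sum holds no others, with 0 detected there. Detected members enter the miR-669 sum on every vector array. Unscaled, miR-669f and miR-669a gave 24.96 and 11.35 of 47.8 on vector replicate 2, and miR-669f alone 10.3 of 22.6 on vector replicate 4. Scaling multiplied whatever lay above 0 on the dim RapCA arrays. Before scaling the groups overlapped in all 3 sums, with 11.3 to 23.6 against 12.5 to 29.8 for miR-466. The unscaled sums for miR-467 were 17.1 to 32.4 against 17.6 to 37.2, and those for miR-669 were 22.6 to 47.8 against 16.7 to 57.4. The sum for miR-297 was 0 on 7 arrays and 1 on RapCA replicate 1 after scaling, with no detected probe.

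As a share of the total gene signal that Feature Extraction gives for detected miRNAs, all 39 members together made up 0.0514%, 0.122%, 0.0718% and 0.0428% on the vector arrays 1 to 4. On the RapCA arrays 1 to 4 they made up 0.226%, 0.105%, 0.193% and 0.122%. RapCA replicates 1 and 3 were the highest, and RapCA replicate 2 lay below vector replicate 2, so the groups overlapped. The total itself was 59460 to 81930 on the vector arrays and 26324 to 56575 on the RapCA arrays.

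Other miRNAs with repeat runs like those of the members gave few values to set beside them. With a mature sequence matched for 207 of the 611 mouse miRNAs, 3 miRNAs outside the families held UGUGUG (miR-574-5p, miR-1187 and miR-291a-3p) and only miR-574-5p was tested. Its log2 signal was 4.73 ± 0.18 in vector and 4.46 ± 0.43 in RapCA cells (SD, n = 4 each), a log2 change of -0.27 ± 0.20 (SE) that was not called (limma adjusted p = 0.238). Another 3 held ACACAC, a list made after the data had been seen, of which miR-362-3p (0.27 ± 0.31) and miR-574-3p (0.06 ± 0.21) were tested and not called (log2 change ± SE, n = 4 per group). Whether their changes differ from that of miR-467f was not tested.

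**Figure D4:**
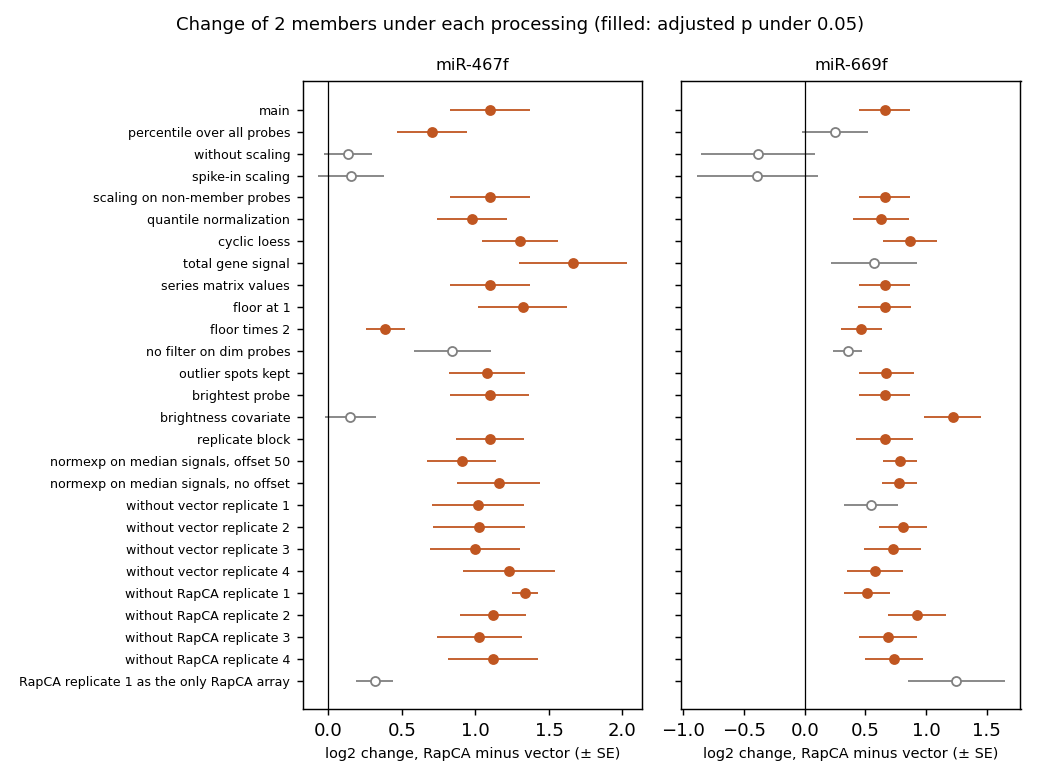
Log2 change of miR-467f (left) and miR-669f (right), RapCA minus vector, with its SE, under the main processing and each alternative, with filled points where the limma adjusted p was under 0.05. miR-467f lies above 0 throughout and is near 0 (0.13 to 0.16) without scaling, with spike-in scaling and with a brightness covariate, and miR-669f is below 0 without scaling and with spike-in scaling.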

How the data were processed

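MicroRNA was measured on 8 one-colour Agilent arrays, 4 per group, grouped by sample title. Per the file headers, the authors deposited spot intensity values from Agilent Feature Extraction 10.7.3.1 (10.7 in the submitters' processing notes), background-subtracted, detrended and not scaled between arrays. The series-wide table of intensity held the same values (largest difference 0). No spot was saturated (0). Control spots and spots marked as outliers (2.98% to 4.66% per array) were left out. Signal was scaled to equal 75th percentiles over 189 probes, floored per spot at 9.61 (percentile 1 of the signal of spots well above background, median of the 8 arrays), logged and averaged per probe and miRNA. limma 3.58.1 in R 4.3.3 (lmFit, eBayes, two-sided) compared groups over 168 miRNAs, with Benjamini-Hochberg adjustment at 0.05. The number of arrays limits precision. The method was tested on simulated data. Changes were set there only in miRNAs brighter on the vector arrays than both tested members, so signals near the floor were not covered. The members and lists were chosen with earlier results of these data known. All tested or detected members are named, and the highest undetected one of each family. miR-466h, the members below background that are named and the ACACAC list were chosen after their values were seen. Cultures with the same replicate number deviated together for number 4 only, so the numbers were not used as pairs. The correlations were -0.654, -0.602 and -0.549 for numbers 1 to 3 and 0.633 for number 4.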

Additional observations from a re-analysis of the deposited data

Results flagged for a closer look

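In a group of 4, an array was singled out where its gap to the nearest other, over the range of the group, passed Dixon's 95% critical value. Of 25 such sets, 5 were singled out, where chance gives about 1 in 20, and all 5 concern RapCA replicate 1. Its log2 signal of miR-467f was 3.48, against 4.66 to 4.90 on the other RapCA arrays. Its unscaled signal of miR-466a-3p was 16.1 against 2.84 to 4.10, and that of miR-669a was 18.6 against 6.25 to 7.91. The summed scaled signal of the miR-297 family was 1 there and 0 on the others. With values below 0 set to 0, a single positive sum passes whatever its size, so the rate of 1 in 20 does not apply to it. The 75th percentile of the common probes was 383 against 144 to 159. The sets share arrays, so they are not independent. The cause was not tested.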

How the results depend on the processing

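Over 26 alternatives, miR-467f stayed above 0 in all 26 and was called raised in 21, and miR-669f was above 0 in 24 and called raised in 19. Some alternatives could not differ from the main fit, so these counts overstate how stable the calls are. Scaling on non-member probes and the series-wide values repeated it exactly, as no member was detected on all 8 arrays and the values were identical. Taking the brightest probe and adding the replicate block could not move either log2 change. Both scalings that left the array brightness in place ended both calls, so 0 members were raised. Without scaling, miR-467f was at 0.134 and miR-669f reversed to -0.387, with 10 of all tested miRNAs raised. With spike-in scaling they were at 0.156 and -0.389, with 9 raised. Taking the percentile over all probes gave 28 raised, 1 of them a member, and miR-669f was at 0.249. Taking Feature Extraction's total gene signal in place of the probe signal let 4 members be tested. Of these, 3 were raised, miR-466f-3p (1.08), miR-467f (1.66) and miR-669a (1.30), while miR-669f at 0.573 was no longer called. Feature Extraction marked miR-466f-3p on 4 RapCA arrays and 2 vector arrays. It was thus kept through the RapCA arrays alone, where it is called high, so its call is not independent of that choice. With only probes detected on all 8 arrays, 0 members were tested and 0 raised. With no filter, 39 were tested and 1, miR-669a, was raised, with miR-467f at 0.843 and miR-669f at 0.354. With a brightness covariate, a fit that leans on RapCA replicate 1, 1 member was raised and miR-467f was at 0.151. The planned normexp on mean signals was not run, as mean spot signals were not used here. On median signals, chosen after seeing the data, an offset of 50 gave 76 raised and 20 lowered among all tested miRNAs, against 44 and 84, and no offset gave 54 lowered. RapCA replicate 1 as the only RapCA array, also chosen after seeing the data, gave 0.52 for miR-466a-3p, 0.29 for miR-467a* and 0.66 for miR-669a. All 3 had vector means at or near the floor. They were kept for that fit through this single array, where they are high, so their changes are not independent of that choice. The same fit gave 0.317 for miR-467f and 1.25 for miR-669f, neither called. Leaving out 1 array at a time gave 1.00 to 1.34 for miR-467f and 0.512 to 0.929 for miR-669f, and 1 to 2 members raised.

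With the replicate block, miR-467f was at 1.10 (limma adjusted p = 0.00434) and miR-669f at 0.66 (limma adjusted p = 0.0388), so neither call changed. Only number 4 of the 4 correlated best with its own number.

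Members detected per array averaged 5.5 in vector and 5.75 in RapCA cells by the Feature Extraction call, and 4.25 in vector and 5 in RapCA cells when any spot sufficed. The RapCA over vector ratio of summed signal, 2.88 for miR-466, was 1.38 without scaling, 1.4 with spike-in scaling and 4.7 with total gene signal. For miR-467 it was 2.04, and 0.986 without scaling, 1.51 with the percentile over all probes and 1 with spike-in scaling. For miR-669 it was 1.73, and 0.901, 1.29 and 0.917 in that order. These ratios include signals of members not detected by the rule used above, with 0 miR-466 miRNAs detected on any vector array, and are no folds of expression. Signals near background limit all members, miR-467f on the vector arrays included.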

Other observations

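The detection call that Feature Extraction makes per miRNA was looser than the rule used above. It marked 10 of the 39 members on at least 1 array, among them miR-466i on 3, miR-467b on 4 and miR-669n on 2, none of which had a detected probe here. It marked miR-467f, miR-669a and miR-669f on all 8. miR-467b, which is reported to act on lipoprotein lipase in mouse macrophages, was marked on 3 vector arrays and 1 RapCA array. Its unscaled signal was 7.12, 6.97, 6.93 and 3.63 on the vector arrays 1 to 4 and 6.23, 1.64, 0.817 and 1.28 on the RapCA arrays 1 to 4, so RapCA replicate 1 lay among the vector values and the groups overlapped.

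Each tested member had a second, undetected probe. That of miR-669f had 4.53, 10.1, 7.89 and 3.63 on the vector arrays 1 to 4 and 11.1, 3.01, 4.96 and 5.13 on the RapCA arrays 1 to 4, so both probes were highest on RapCA replicate 1 and next highest on vector replicates 2 and 3. On the undetected probe, RapCA replicates 3 and 4 lay above vector replicates 1 and 4, unlike on the tested probe. For miR-467f the undetected probe had 6.33, 8.90, 5.57 and 6.003 on the vector arrays and 8.52, 8.02, 10.2 and 9.80 on the RapCA arrays, with both probes highest on RapCA replicate 3.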
